A study of Mus musculus with 28 samples.

Results

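Liver transcripts of 4 genes of ketone body metabolism and transport were followed in WT mice and mice transgenic for Sirt6, in both sexes. The genes were Acat1, Bdh1, Bdh2 and Slc16a1, chosen by their symbols from the 49585 features counted, and all 4 passed the filter on low counts and were tested among 21583 genes. RNA-seq read counts came from 28 livers, 7 of each genotype (WT or SIRT6-tg) in each sex. All mice were of the strain C57BL/6JOlaHsd, 5 to 7 months old by the labels, kept on a standard chow diet and fasted for 4 h before tissue collection. WT mice were littermates without the transgene. SIRT6-tg mice came from 1 transgenic line, which the study distinguishes from a separate liver-specific strain, and the promoter that drives the transgene is not given in the sources used here.

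Ketone bodies are made in liver mitochondria from the acetyl-CoA that fatty acid oxidation releases, and they are exported as fuel for brain, heart and muscle during fasting. A thiolase joins acetyl-CoA units to acetoacetyl-CoA, from which acetoacetate is formed, and 3-hydroxybutyrate dehydrogenase reduces acetoacetate to 3-hydroxybutyrate. Monocarboxylate transporters then carry the products across the plasma membrane, and because hepatocytes hold little of the transferase that reactivates acetoacetate, the liver releases ketone bodies rather than burning them.

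Acat1 (ENSMUSG00000032047, chr9:53580522-53610382, minus strand) encodes the mitochondrial acetoacetyl-CoA thiolase, which works in both directions and also completes isoleucine breakdown. Bdh1 (ENSMUSG00000046598, chr16:31422280-31458901, plus strand) encodes the mitochondrial 3-hydroxybutyrate dehydrogenase. Bdh2 (ENSMUSG00000028167, chr3:135281221-135304426, plus strand) encodes a cytosolic short-chain dehydrogenase that has been linked to 3-hydroxybutyrate and to the synthesis of a mammalian siderophore. Slc16a1 (ENSMUSG00000032902, chr3:104638668-104658462, plus strand) encodes MCT1, a proton-coupled carrier of lactate, pyruvate and ketone bodies that reaches the membrane together with the chaperone basigin. Positions are those of Gencode vM21 on GRCm38, the build to which the reads were aligned (mm10). An antisense gene, Gm15743, shares 533 exonic bases with Bdh1, and the strand setting of the counting is not given in the sources used here. Gm15743 held 9 to 36 counts per library where Bdh1 held at least 5637. No transcript of Bdh2, Acat1 or Slc16a1 matched a transcript of another gene at 95% identity over 100 bases.

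No window was available for Acat1 in the sources used here. The 250 bases before the start sites of Bdh1, Bdh2 and Slc16a1 are printed to set the sequence context of these members side by side. They were taken from RefSeq (GRCm38.p6), are all on the plus strand and read 5′ to 3′. Capitals mark every match, on either strand, to any of 7 motifs. These were the nuclear receptor hexamer AGGTCA, its direct repeat AGGTCANAGGTCA (the PPAR element, which holds the hexamer), the E-box CACGTG, the CCAAT box, the GC box GGGCGG, the TATA box as TATAAA, and the forkhead core GTAAACA. RefSeq gives a second Bdh1 start with the window chr16:31428503-31428752, which held none of these letters either.
Bdh1, chr16:31422047-31422296: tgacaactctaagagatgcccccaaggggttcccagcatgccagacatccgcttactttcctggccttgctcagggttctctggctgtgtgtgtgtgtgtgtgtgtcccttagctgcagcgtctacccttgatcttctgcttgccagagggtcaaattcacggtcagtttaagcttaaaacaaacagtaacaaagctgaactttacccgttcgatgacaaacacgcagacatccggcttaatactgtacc
Bdh2, chr3:135280971-135281220: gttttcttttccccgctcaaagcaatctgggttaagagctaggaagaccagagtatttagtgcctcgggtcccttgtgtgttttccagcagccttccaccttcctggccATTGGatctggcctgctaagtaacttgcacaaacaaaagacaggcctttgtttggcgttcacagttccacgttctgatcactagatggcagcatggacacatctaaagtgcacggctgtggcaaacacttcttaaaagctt
Slc16a1, chr3:104638414-104638663: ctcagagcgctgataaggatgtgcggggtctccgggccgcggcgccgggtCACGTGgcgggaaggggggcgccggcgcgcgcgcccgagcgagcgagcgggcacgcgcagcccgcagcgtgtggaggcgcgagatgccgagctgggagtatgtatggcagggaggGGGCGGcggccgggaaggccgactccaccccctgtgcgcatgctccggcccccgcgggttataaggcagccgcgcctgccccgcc
The Slc16a1 window held an E-box, found in 6.02% of 32851 mouse windows of 250 bases, and a GC box, found in 32.7% of them. The Bdh2 window held a CCAAT box on the minus strand, a motif found in 33.8% of windows, and the Bdh1 window held none of the motifs. The hexamer occurs in 14% of windows, the TATA box in 12.4%, the forkhead core in 3.17% and the direct repeat in 0.0335%, and none of them was in the 3 windows. The windows differed in base composition, with a GC content of 76.4% for Slc16a1, 49.6% for Bdh1 and 48% for Bdh2.

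Total counts per library lay between 18758863 and 35393069. Sirt6 was at 198 to 358 CPM (reads relative to the library total, corrected by TMM factors) in male SIRT6-tg livers and at 16.4 to 50.2 CPM in female SIRT6-tg livers, above the WT range of 1.69 to 6.22 CPM in both sexes. The hepatocyte markers were abundant in every group, and their summed level per library ranged from 129000 to 238000 CPM. The TMM factors ran from 1.06 to 1.17 in male WT libraries and from 0.821 to 0.993 in male SIRT6-tg libraries, so differences between these 2 groups depended on the scaling. When TMM factors were left out and libraries were scaled by their totals, the male median of log2 fold changes across all genes moved from 0.0564 to -0.219, and the genes called moved from 2090 higher and 2377 lower to 210 higher and 4084 lower. Changes of the members are therefore also given relative to the median of all genes. Rescaling shifts all genes by nearly the same amount, so the closeness of these values across scalings follows from the calculation. It is not a test of the members. The headers number the libraries in a separate block for each group, and what these numbers stand for is not given in the sources used here. An effect of that order cannot be told apart from the groups.

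Per kilobase of exon, the 4 genes kept the same order of levels in all 28 libraries, with Acat1 first, followed by Bdh1, Slc16a1 and Bdh2. In male WT livers the mean level was 82.95 ± 11.4 CPM per kb for Acat1, 69.3 ± 7.47 for Bdh1, 14.2 ± 2.44 for Slc16a1 and 4.21 ± 1.04 for Bdh2 (SD, n = 7). The ranges of the thiolase and Bdh1 overlapped in this group, whereas those of Bdh1, Slc16a1 and Bdh2 did not. Divided by coding length instead of exon length, Bdh1 stood at 262 and Acat1 at 245.1 CPM per kb in male WT livers, so the order of the top pair depended on the length used. In the other groups the mean of Acat1 led on either length, though not every library kept that order by coding length.

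**Figure D1:**
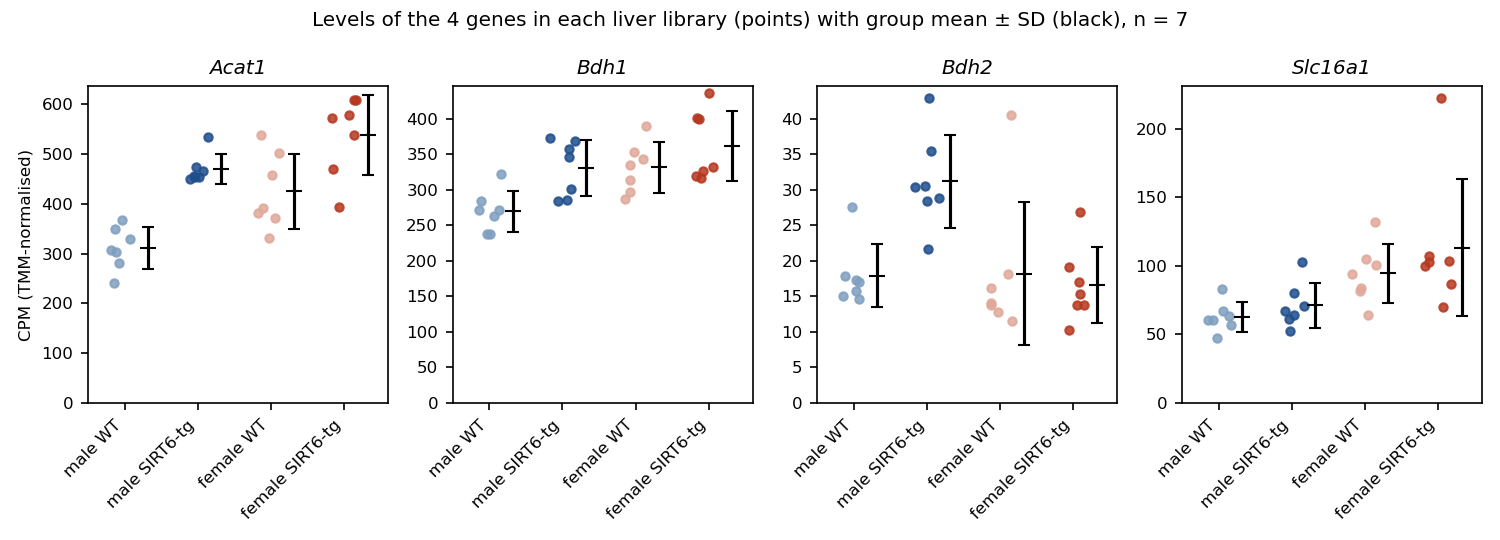
CPM (TMM-normalised, y axis from 0, a separate scale for each gene) of Acat1, Bdh1, Bdh2 and Slc16a1 in each of 28 liver libraries, by sex and genotype; points are libraries and black marks are the group mean ± SD (n = 7). Acat1 separates male SIRT6-tg from male WT libraries, and lone high libraries stand out for Bdh2 in male WT (27.56 CPM) and female WT (40.48 CPM) and for Slc16a1 in female SIRT6-tg (222.4 CPM).

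The comparison of male SIRT6-tg with male WT livers asked whether the transgene goes with different levels of these transcripts in males. Acat1, Bdh2 and Bdh1 were higher in SIRT6-tg males, by 1.51-fold, 1.74-fold and 1.23-fold, and Slc16a1 did not pass the test. That is 3 of 4 members called higher, where 9.68% of all genes tested were called higher, 11% lower and 20.7% in either direction. The median log2 fold change of the 4 was 0.44 beside 0.0564 over all genes.

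Acat1 ranged from 241.4 to 368.6 CPM in male WT livers (median 307.8) and from 450.6 to 534.3 CPM in male SIRT6-tg livers (median 456.8). Every transgenic male lay above every WT male, and 6 of the 7 transgenic libraries fell within a narrow band below a lone highest library. With library size alone that library, replicate 7, lay inside the range of its group (438.5 CPM, group 408.9 to 452.3). The thiolase was higher by 0.59 log2 units (SE 0.11, edgeR adjusted p = 0.000195). It was 0.31 with library size alone (edgeR adjusted p = 0.0391) and 0.30 when libraries were scaled to the hepatocyte markers (edgeR adjusted p = 0.0785), and the call held under every other alternative run. Relative to the median of all genes, the change of the thiolase lay between 0.53 and 0.54 log2 units under all 5 scalings. That closeness comes from the calculation.

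Bdh1 ranged from 237.6 to 322.1 CPM in male WT livers (median 270.8) and from 284.1 to 373.1 CPM in male SIRT6-tg livers (median 346.4). The groups overlapped, and 4 of 7 transgenic males lay above all WT males. The log2 fold change of the dehydrogenase was 0.30 (SE 0.097, edgeR adjusted p = 0.0281). This call was lost under RLE scaling (0.26, edgeR adjusted p = 0.0701), upper-quartile scaling (0.21, edgeR adjusted p = 0.138), in a fit of the male libraries alone (0.21, edgeR adjusted p = 0.154), with no filter on low counts (0.29, edgeR adjusted p = 0.0534), without both female WT replicate 1 and male WT replicate 6, the WT libraries with the most Bdh2 (0.26, edgeR adjusted p = 0.0596) and in 9 of 28 fits that left out 1 library. Its change was 0.012 with library size alone and -0.0016 with scaling to the hepatocyte markers, and 0.23 to 0.24 relative to the median of all genes under the 5 scalings.

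Bdh2 ranged from 14.59 to 27.56 CPM in male WT livers (median 17.04) and from 21.64 to 42.85 CPM in male SIRT6-tg livers (median 30.31). All but 1 of the transgenic males lay above every WT male, and the highest WT male, replicate 6, lay well above the other 6 WT males, which reached at most 17.82 CPM. Bdh2 was higher by 0.80 log2 units (SE 0.23, edgeR adjusted p = 0.0118) and 0.94 without male WT replicate 6. It fell short of the threshold with library size alone (0.50, edgeR adjusted p = 0.0867) and with scaling to the hepatocyte markers (0.48, edgeR adjusted p = 0.107), and lay between 0.72 and 0.75 relative to the median of all genes. Bdh2 is among the genes that the study selected on these libraries for a display of fatty acid oxidation, so its direction here is not independent evidence.

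Slc16a1 ranged from 47.72 to 82.9 CPM in male WT livers (median 60.75) and from 52.75 to 102.5 CPM in male SIRT6-tg livers (median 67.31). The groups overlapped almost entirely, with 1 transgenic male above all WT males. The log2 fold change of the transporter was 0.18 (95% interval -0.20 to 0.57, edgeR adjusted p = 0.554), and it was -0.10 with library size alone and -0.13 with scaling to the hepatocyte markers. Relative to the median of all genes it lay between 0.10 and 0.13.

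Ratios of members within a library do not depend on how libraries are scaled. The ratio of Acat1 to Bdh1 CPM was 1.02 to 1.3 in male WT livers (median 1.16) and 1.22 to 1.61 in male SIRT6-tg livers (median 1.51). The ratio of Bdh1 to Bdh2 was 8.62 to 21.4 in male WT livers (median 15.7) and 8.08 to 13.9 in male SIRT6-tg livers (median 10.5). The medians differed, but both pairs of ranges overlapped and the ratios were not tested. Whether the members moved by the same factor was thus not decided.

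In females, no member passed the test between SIRT6-tg and WT livers. Only 6 genes in all, 0.0278% of those tested, were called by edgeR in this comparison (0.0232% higher and 0.00463% lower), 1212 had an unadjusted p under 0.05, and DESeq2 called 24 higher and 20 lower. The transgenic females also held less Sirt6 RNA than the transgenic males.

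Acat1 ranged from 332.1 to 538.8 CPM in female WT livers (median 392.8) and from 394 to 608.2 CPM in female SIRT6-tg livers (median 573.7). The ranges overlapped, with 4 of 7 transgenic females above all WT females. In log2 units the difference was 0.34 (95% interval 0.11 to 0.57, unadjusted p = 0.00442 and adjusted p = 0.459 by edgeR), and it lay between 0.337 and 0.34 relative to the median of all genes under the 5 scalings. The interval of this single gene excludes 0, but the value did not hold after adjustment over all genes.

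Bdh1 ranged from 287.2 to 390.2 CPM in female WT livers (median 335) and from 316.6 to 435.9 CPM in female SIRT6-tg livers (median 332). The medians lay close together although the means were 331.2 ± 35.4 and 361.6 ± 49.1 CPM (SD, n = 7), because 3 transgenic females lay above all WT females. This gave a log2 fold change of 0.13 (95% interval -0.07 to 0.32, edgeR adjusted p = 1).

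Bdh2 ranged from 11.53 to 40.48 CPM in female WT livers (median 14.13) and from 10.25 to 26.86 CPM in female SIRT6-tg livers (median 15.28). A lone WT female, replicate 1, held the highest level, and the other 6 reached at most 18.16 CPM. The log2 fold change of Bdh2 was -0.13 (95% interval -0.60 to 0.33, edgeR adjusted p = 1), and it changed sign to 0.19 without that library.

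Slc16a1 ranged from 64.02 to 131.7 CPM in female WT livers (median 94.21) and from 70.04 to 222.4 CPM in female SIRT6-tg livers (median 102.9). A lone transgenic female, replicate 1, lay far above the rest of its group, which reached at most 107.5 CPM. The log2 fold change of the transporter was 0.26 (95% interval -0.12 to 0.65, edgeR adjusted p = 1) and 0.0081 without that library.

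A test of the difference between the 2 genotype effects asked whether the transgene went with another change in males than in females. Sirt6 had a median of 271 CPM in SIRT6-tg males and 29.6 CPM in SIRT6-tg females. Sex and transgene level therefore cannot be told apart in this test. No member passed the test, where 5.05% of all genes did, 1.2% with a higher and 3.84% with a lower value in males. Bdh2 came nearest, with a difference of 0.94 log2 units, males minus females (SE 0.32, unadjusted p = 0.00705 and adjusted p = 0.0924 by edgeR). That difference was 0.60 without female WT replicate 1, and its edgeR adjusted p lay between 0.0325 and 0.172 over the fits that left out 1 library, passing the threshold without male WT replicate 6 and without female SIRT6-tg replicate 6. The difference was 0.25 for Acat1 (95% interval -0.07 to 0.57), 0.17 for Bdh1 (-0.11 to 0.45) and -0.08 for Slc16a1 (-0.62 to 0.46), and with library size alone it was -0.042 for Acat1 and -0.12 for Bdh1. An effect called in males and not in females is therefore not shown to differ between the sexes for any of the 4 genes.

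**Figure D2:**
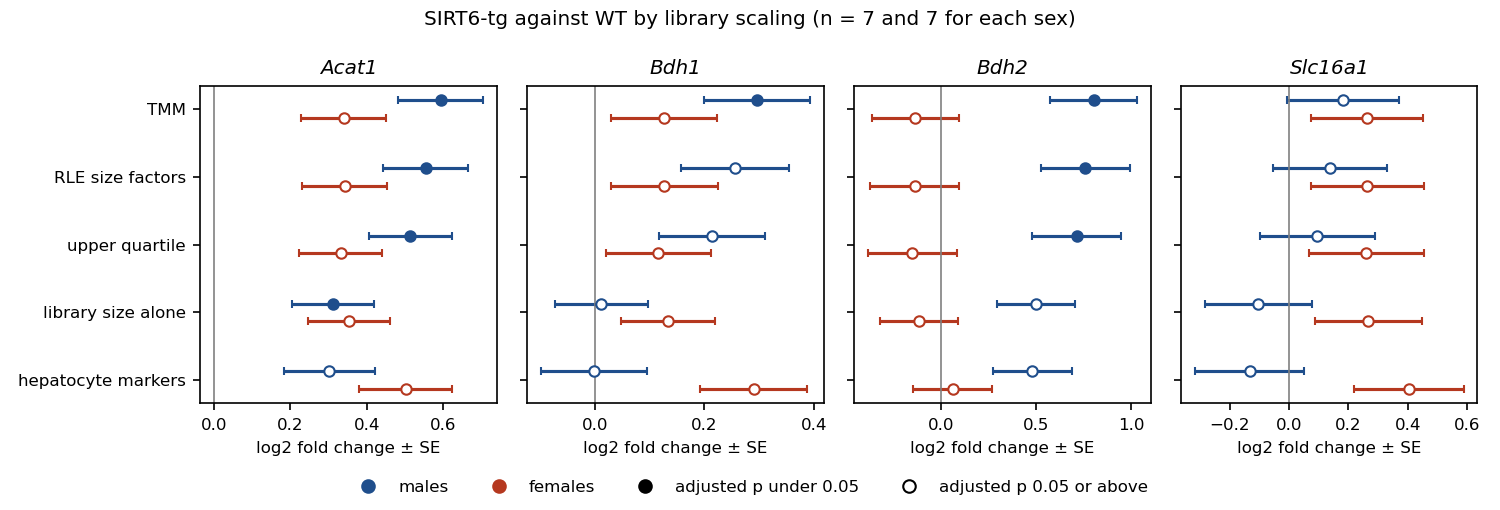
Log2 fold change ± SE (x axis) of SIRT6-tg against WT livers for the 4 genes under 5 ways of scaling the libraries (y axis), in males (blue) and females (red), with 7 libraries in each group; filled points passed an adjusted p of 0.05. Acat1 is called in males under 4 of the 5 scalings, Bdh2 under 3 and Bdh1 under 1, the male values of Bdh1 and Slc16a1 come to or below 0 under library size alone or the hepatocyte markers, and the female value of Bdh2 changes sign to 0.062 under the hepatocyte markers.

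In WT mice, Slc16a1, Acat1 and Bdh1 were lower in males than in females, by 0.59, 0.45 and 0.30 log2 units, and Bdh2 did not pass the test. That is 3 of 4 members called lower, where 5.71% of all genes were called lower, 6.65% higher and 12.4% in either direction. It uses the same male WT libraries as the comparison of genotypes in males, so the male WT values enter both. The Slc16a1 ranges given above overlapped, with 5 of 7 WT males below every WT female (SE 0.19, edgeR adjusted p = 0.0363). The same held for Acat1, with 5 of 7 WT males below every WT female (SE 0.11, edgeR adjusted p = 0.00603). Bdh1 overlapped less, with 6 of 7 WT males below every WT female (SE 0.097, edgeR adjusted p = 0.0401). The call was lost in 13 of 28 fits without 1 library for Bdh1, in 12 for Slc16a1 and in none for Acat1. Bdh1 also lost it under RLE scaling (edgeR adjusted p = 0.0603), with no filter on low counts (0.0743), in a fit of the WT libraries alone (0.0715), with the replicate number as a block (0.0567) and without both libraries of high Bdh2 (0.0876), and Slc16a1 lost it with no filter (0.0542). The log2 fold change of Bdh2 was -0.02 (95% interval -0.49 to 0.44) and became 0.32 without female WT replicate 1, with neither passing the test. Lying this near 0, the value of Bdh2 changed sign in 10 of the 28 fits without 1 library. With library size alone no member was called in this comparison, the values being -0.40 for Slc16a1, -0.26 for Acat1, -0.11 for Bdh1 and 0.19 for Bdh2, and the median of all genes moved from -0.00326 to 0.187. Scaling to the hepatocyte markers also left no member called, with -0.28 for Slc16a1, -0.16 for Acat1, 0.0025 for Bdh1 and 0.34 for Bdh2. Relative to the median of all genes under the 5 scalings, the values lay between -0.59 and -0.58 for Slc16a1, between -0.46 and -0.45 for Acat1 and between -0.30 and -0.29 for Bdh1.

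Among transgenic mice, whose libraries also enter the comparisons of genotypes, Bdh2 was higher and Slc16a1 lower in males than in females. These males also held more Sirt6 RNA than the females, so sex and transgene level cannot be told apart here. In all, 12.9% of genes were called higher and 10.2% lower in this comparison, 23.1% together. Bdh2 differed by 0.91 log2 units (SE 0.23, edgeR adjusted p = 0.00451), with 6 of 7 SIRT6-tg males above every SIRT6-tg female. Slc16a1 differed by -0.67 log2 units (SE 0.19, edgeR adjusted p = 0.0102), and by -0.42 without female SIRT6-tg replicate 1, where it remained past the threshold. Acat1 (-0.20, 95% interval -0.42 to 0.03) and Bdh1 (-0.13, 95% interval -0.33 to 0.07) did not pass the test. Acat1 passed it with library size alone (-0.30, edgeR adjusted p = 0.0415), and both passed it when libraries were scaled to the hepatocyte markers, Acat1 at -0.36 (edgeR adjusted p = 0.0325) and Bdh1 at -0.29 (edgeR adjusted p = 0.032). Set side by side, Acat1 averaged 311.7 CPM in WT males, 425.5 in WT females, 470.3 in SIRT6-tg males and 538.6 in SIRT6-tg females, and the lowest of these groups was the male WT.

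Acat3, a cytosolic thiolase, was higher in SIRT6-tg males by 0.38 log2 units (edgeR adjusted p = 0.00386), but its transcripts match those of Acat2 at 97.7% identity over 1477 bases, and the split of reads between the pair is uncertain. It did not pass the test with library size alone (0.09, edgeR adjusted p = 0.519).

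Oxct1, the transferase with which tissues other than liver reactivate acetoacetate, went the other way. It was at 7.067 to 13.49 CPM in male WT livers (median 11.39) and at 3.997 to 5.241 CPM in male SIRT6-tg livers (median 4.273), and every transgenic male lay below every WT male. It fell by 1.25 on the log2 scale (SE 0.17, edgeR adjusted p = 3.75e-06) and by 1.54 with library size alone. A transcript of BC037032 matches Oxct1 over 468 bases at 100% identity. The difference between males and females passed the test (-1.02, SE 0.25, edgeR adjusted p = 0.011), and Oxct1 was also higher in WT males than in WT females (0.66, SE 0.17, edgeR adjusted p = 0.00882). Bulk tissue cannot tell fewer cells of a type from less RNA per cell. In SIRT6-tg males 11% of genes were called lower, as were all 8 T-cell, 10 of 10 macrophage and 6 of 6 stellate markers. Their part in the level of Oxct1 was not tested.

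Among 15 tested relatives and partners of Slc16a1, none was called higher and 3 were called lower in SIRT6-tg males. Over all genes tested, 9.68% were called higher and 11% lower in this comparison. Slc16a3, the lactate exporter MCT4, was at 0.9423 to 2.468 CPM in male WT livers and at 0.2074 to 0.619 CPM in male SIRT6-tg livers, without overlap (log2 fold change -2.003, SE 0.25, edgeR adjusted p = 7.75e-07). Emb, which encodes the chaperone embigin, was also low, at 1.004 to 2.435 CPM in male WT and 0.3494 to 0.8486 CPM in male SIRT6-tg livers. It fell by 1.74 on the log2 scale (SE 0.24, edgeR adjusted p = 3.74e-06), also without overlap. Slc16a9, a carrier of carnitine, fell by 0.91 (SE 0.20, edgeR adjusted p = 0.000948), with 6 of 7 transgenic males below every WT male. Bsg, the gene of basigin, was at 289.6 to 422.3 CPM in male WT livers and at 339.2 to 578.7 CPM in male SIRT6-tg livers, and did not pass the test (0.27, edgeR adjusted p = 0.194). It was chosen after its values were seen. The direction of these 3 was the same with library size alone, where 5 members of the list were called lower. Most calls among all genes were also lower under that scaling. The immune and stellate markers named above were lower in the same libraries. Their summed levels in male WT and male SIRT6-tg livers were 16.2 to 47.7 and 6.04 to 8.38 CPM for T cells, 503 to 1630 and 403 to 691 CPM for macrophages, and 294 to 535 and 227 to 326 CPM for stellate cells, and their part in the levels of Slc16a3 and Emb was not tested. Slc16a5, a relative with the next lowest p, had a log2 fold change of -0.65 (edgeR adjusted p = 0.0939).

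The acetyl-CoA for ketogenesis comes mainly from fatty acids. On the list of mitochondrial β-oxidation, 13 of 15 genes were called higher in SIRT6-tg males, with a median log2 fold change of 0.46. Over all genes 9.68% were called higher, and the median was 0.0564. Cpt2, the inner-membrane carnitine palmitoyltransferase, was higher by 0.52 (SE 0.092, edgeR adjusted p = 9.67e-05). The acyl-CoA dehydrogenases Acadvl, Acadl and Acadm, for very long, long and medium chains, were higher by 0.48, 0.43 and 0.47 (edgeR adjusted p = 0.000206, 0.000348 and 0.000393). The study chose genes of this pathway for display on these libraries, so the list is not independent evidence of a direction. Scaled by library size alone, 1 of the 15, Cpt2, was called (0.24, edgeR adjusted p = 0.0423), and 14 of the 15 had a value above 0. In females none of the 15 passed the test. The difference between the sexes passed it for Acadvl (0.43, SE 0.13, edgeR adjusted p = 0.0436) but not with library size alone (0.14, edgeR adjusted p = 0.584).

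The other thiolases and the rest of the isoleucine pathway, in which Acat1 takes the last step, showed the same direction in males. In that comparison 9.68% of all genes were called higher. Of 7 thiolases 6 were called higher, among them the peroxisomal Acaa1b (0.89, SE 0.16, edgeR adjusted p = 0.000103) and the mitochondrial Acaa2 (0.52, SE 0.11, edgeR adjusted p = 0.000543) and Hadhb (0.46, SE 0.10, edgeR adjusted p = 0.00163), the last 2 of which are also on the β-oxidation list. Of 8 genes of isoleucine breakdown 6 were called higher. Hsd17b10, which makes the substrate of the Acat1 thiolase in that pathway, was higher by 0.65 (SE 0.16, edgeR adjusted p = 0.00439). Dld, a subunit of the branched-chain ketoacid dehydrogenase, Echs1, a hydratase, and Acadsb, a dehydrogenase, were higher by 0.39, 0.39 and 0.36 (edgeR adjusted p = 0.00113, 0.0128 and 0.0137). Echs1 is also on the β-oxidation list, and the 7 thiolases include the closely matching Acat2 and Acat3. Scaled by library size alone, 1 thiolase, Acaa1b, and no isoleucine gene were called higher, and 6 of the 8 isoleucine genes had values above 0.

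Of 10 regulators and targets linked to fasting, 3 were called higher in SIRT6-tg males and none lower, beside 9.68% and 11% of all genes. Sirt3, a mitochondrial deacetylase, was higher by 0.35 (SE 0.078, edgeR adjusted p = 0.00148). Foxa2, a forkhead factor of fasting metabolism, was higher by 0.63 (SE 0.18, edgeR adjusted p = 0.0092), and Angptl4, a secreted PPAR target, by 0.57 (SE 0.21, edgeR adjusted p = 0.0467). Fgf21, a fasting hormone of the liver, had a log2 fold change of 1.27 (SE 0.65, edgeR adjusted p = 0.182). None of the 10 passed the test with library size alone.

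**Figure D3:**
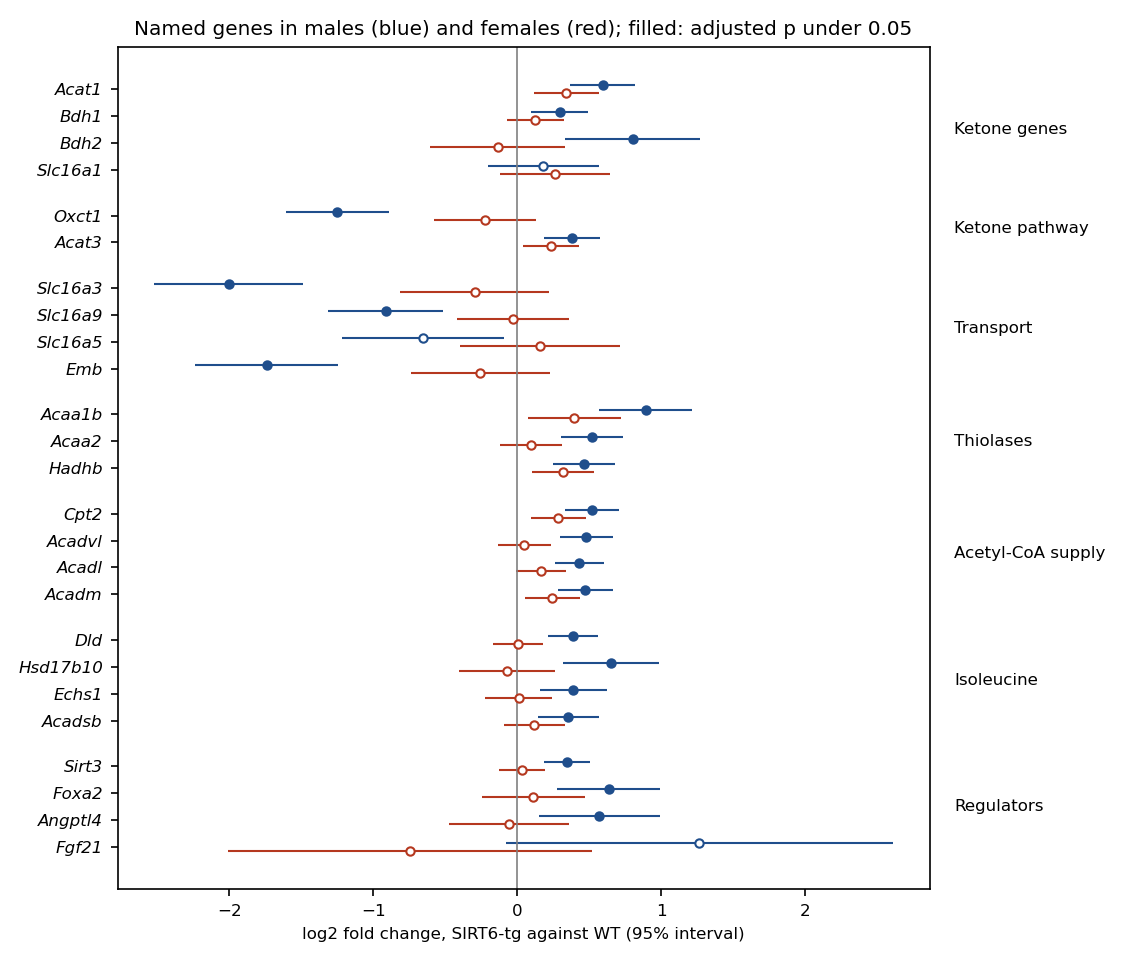
Log2 fold change of SIRT6-tg against WT livers with its 95% interval (x axis) for the 4 ketone genes and the named genes of their pathways (y axis), in males (blue) and females (red), 7 libraries in each group; filled points passed an adjusted p of 0.05. In males most enzymes lie above 0 while Oxct1 (-1.25), Slc16a3 (-2.003), Slc16a9 (-0.91) and Emb (-1.74) lie below it, and no female point is filled. With library size alone the male enzymes move towards 0 and most are no longer called.

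Cell type markers moved with these results. Of 14 tested hepatocyte markers 7 were called higher in SIRT6-tg males and none lower, beside 9.68% and 11% of all genes. The summed level of these markers had a median of 135000 CPM in male WT and 181000 CPM in male SIRT6-tg livers. The median was 195000 CPM in female WT and 186000 CPM in female SIRT6-tg livers. Male WT livers had the lowest median of this sum and the lowest means of Acat1, Bdh1 and Slc16a1. The females did not keep that order. SIRT6-tg females had a lower median sum than WT females but higher means of Acat1, Bdh1 and Slc16a1. The lowest mean of Bdh2 was in SIRT6-tg females (16.56 CPM), beside 17.88 CPM in WT males. The scaling to the hepatocyte markers described above used the geometric mean of their counts, not this sum, so each marker weighed alike. Under it Acat1 stood 0.30 higher, Bdh2 0.48 higher and Bdh1 at -0.0016 in SIRT6-tg males, and none was called. Under that scaling 1 of the 7 thiolases and none of the β-oxidation, isoleucine or regulator genes was called higher in SIRT6-tg males. There 5 of the 15 transporter genes were called lower, and most calls among all genes were lower too. The part of cell composition in the members' levels was not tested.

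The spread between mice of a group rested in several groups on 1 library. Across the 4 groups the highest library was 1.89 to 3.51 times the lowest for Bdh2 and 1.74 to 3.18 times for Slc16a1, but 1.19 to 1.62 times for Acat1 and 1.31 to 1.38 times for Bdh1. With the highest library of each group left out, a choice made after the values were seen, these ratios were 1.22 to 1.86 for Bdh2, 1.41 to 1.64 for Slc16a1, 1.05 to 1.54 for Acat1 and 1.2 to 1.3 for Bdh1. For Bdh2 the ratio went from 3.51 to 1.58 without female WT replicate 1 and from 1.89 to 1.22 without male WT replicate 6, and for Slc16a1 it went from 3.18 to 1.53 without female SIRT6-tg replicate 1. The level of Bdh2 moved across libraries with the transcripts of ribosomal proteins, a set of 77 genes chosen after the data were seen. With group means removed, Pearson's r between Bdh2 and the summed ribosomal level was 0.84 and Spearman's rho 0.77 over 28 libraries, and r was 0.79 without the 2 farthest libraries. All points share the library preparation and the scaling, and the values are a description. Female WT replicate 1, with 40.48 CPM of Bdh2, had a ribosomal sum of 6927 CPM beside a group median of 3420 CPM. Male WT replicate 6, with 27.56 CPM of Bdh2, had 7566 CPM beside a group median of 4180 CPM. The other male WT livers had ribosomal sums of 3296 to 4471 CPM and 14.59 to 17.82 CPM of Bdh2. Among them Bdh2 did not rise with the sum, so in this group the rise rested on replicate 6. The ribosomal sum itself had medians of 4180 CPM in male WT and 4760 CPM in male SIRT6-tg livers, and 2 of the 77 genes were called higher and 1 lower between these groups, where 9.68% of all genes were called higher and 11% lower. The median log2 fold change of the 77 genes was 0.33 in males, beside 0.0564 over all genes, and -0.14 in females, beside 0.00257 over all genes. The part of the ribosomal transcripts in the level of Bdh2 was not tested.

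**Figure D4:**
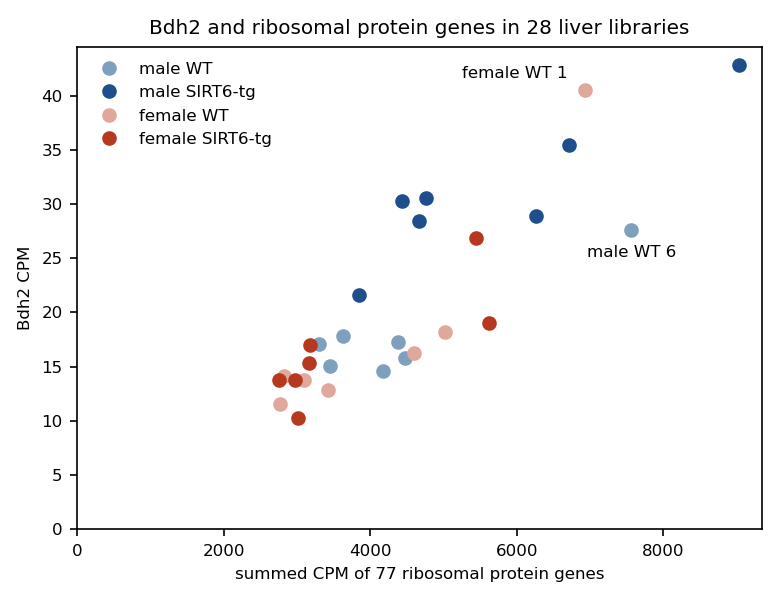
Bdh2 CPM (y axis) against the summed CPM of 77 ribosomal protein genes (x axis) in 28 liver libraries coloured by group. Both tend to rise together, but in male WT libraries the rise rests on the labelled library alone. The labelled WT libraries (40.48 and 27.56 CPM) lie high on both axes, and male SIRT6-tg libraries hold more Bdh2 than most other libraries with a like ribosomal sum.

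Each member had its own set of genes with the most similar pattern over the 28 libraries after removal of group means. For Bdh1 these were Suds3 (Pearson's r 0.81), Aldh3a2 (0.77) and Acadl (0.77). For Bdh2 they were Atp5c1 (0.90), Nudt19 (0.90) and Rpl36 (0.89). For Acat1 they were Lonp2 (0.76), Etfdh (0.74) and Gm4952 (0.72), and for Slc16a1 they were Plin2 (0.85), Wrnip1 (0.84) and Ndrg1 (0.83). The last of these rested in part on the extremes, with 0.67 after the 2 farthest libraries were left out. Among the members themselves, r was 0.49 for Bdh1 with Acat1 and 0.42 for Bdh1 with Slc16a1, and it was 0.04 for Bdh1 with Bdh2 and -0.30 for Bdh2 with Acat1. Bdh1 thus varied to some extent with both Acat1 and Slc16a1 between mice of a group, and Bdh2 followed neither Bdh1 nor Acat1.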

How the data were processed

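Raw counts of 28 liver libraries were analysed, grouped by sex and genotype from the labels. The authors deposited counts without normalization. Per the methods and the submitters' processing notes, single-end reads of NEBNext Ultra libraries were aligned to mm10 with STAR 2.5.0a, and uniquely mapped reads were counted with HTSeq on Gencode genes. Reads that match several genes were thus left out, and the strand setting is not given in the sources used here. Every column was matched to a sample. A symbol was found for 49326 of 49585 features. No pair of libraries in a group agreed within sampling noise (chi-square per gene at least 12.2). Totals were 18758863 to 35393069 counts per library. Intervals are for log2 fold changes between groups and reflect only the variation among these 28 samples, not the range of single livers.

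The filter kept 21583 genes whose mean normalized count reached 0.5. Counts were scaled by TMM and tested with the robust quasi-likelihood test of edgeR 4.0.16 (R 4.3.3) in a fit of all 4 groups, with Benjamini-Hochberg adjustment over all genes and a threshold of 0.05. The 95% intervals are of single genes, unadjusted. Log2 CPM used a prior count of 2. Self-tests on simulated counts were run. The members and gene lists were chosen with earlier results of these data known. Named genes were the members, Oxct1, up to 4 genes per list with the lowest adjusted p in males, and the 3 genes closest to each member in pattern (mean log2 CPM of at least 1). Some listed genes are not reported here. Alternatives were RLE and upper-quartile scaling, library size alone, other filters, DESeq2 1.42.0, fits of 2 groups, the replicate number as a block, coding length, and each library left out. Scaling to hepatocyte markers and leaving out both libraries with high Bdh2 were added after seeing the data. Transcripts were compared with blastn 2.17.0.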

Additional observations from a re-analysis of the deposited data

Results flagged for a closer look

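In groups of 7 the gap between the highest or lowest library and its neighbour was set against the range of the group (Dixon's limit 0.568), for 16 groups of member levels. Chance flags about 1 in 20 such groups, and here 4 of 16 stood out, all with a lone high library. Bdh2 in male WT replicate 6 was at 27.56 CPM where the next library had 17.82 CPM. Bdh2 in female WT replicate 1 was at 40.48 CPM where the next had 18.16 CPM. Acat1 in male SIRT6-tg replicate 7 was at 534.3 CPM where the next had 474.4 CPM. This library had the lowest TMM factor (0.821). With library size alone its Acat1 was at 438.5 CPM, inside the group range of 408.9 to 452.3 CPM, so this flag depended on the scaling. Slc16a1 in female SIRT6-tg replicate 1 was at 222.4 CPM where the next had 107.5 CPM.

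The genotype effect differed between the sexes by edgeR's test for 4 of 57 tested genes on the pathway lists, 7.02% beside 5.05% of all genes, given as males minus females on the log2 scale. These were Oxct1 (-1.02, edgeR adjusted p = 0.011), Slc16a3 (-1.71, edgeR adjusted p = 0.00412), Emb (-1.48, edgeR adjusted p = 0.00773) and Acadvl (0.43, edgeR adjusted p = 0.0436). Scaled by library size alone, Oxct1, Slc16a3 and Emb stayed past the threshold (-1.32, -2.02 and -1.80), and Acadvl had an edgeR adjusted p of 0.584 (0.14). As SIRT6-tg males held more Sirt6 RNA than SIRT6-tg females, sex and transgene level cannot be told apart in these differences.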

How the results depend on the processing

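Log2 fold changes and edgeR adjusted p are given in the order in which each comparison was described, SIRT6-tg against WT unless WT sexes or SIRT6-tg sexes (male against female) are named. With the filter of filterByExpr every member and every count of called genes stayed on its side of the threshold. RLE scaling gave Bdh1 0.26 in males and -0.28 in WT sexes, neither called, and 149 genes higher in the difference between the sexes. Upper-quartile scaling gave Bdh1 0.21 in males, 942 genes higher in males and 117 higher in the difference. No filter gave Bdh1 0.29 in males, and in WT sexes Bdh1 -0.30 and Slc16a1 -0.59, none called, and 130 genes higher in the difference. Fits of 2 groups gave Bdh1 0.21 in males and -0.30 in WT sexes, neither called, with 990 genes higher in males and 1 higher in females. DESeq2 called 24 genes higher and 20 lower in females.

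Library size alone ended the calls of Bdh1 (0.012) and Bdh2 (0.50) in males and of Acat1 (-0.26), Bdh1 (-0.11) and Slc16a1 (-0.40) in WT sexes. It turned the direction of Slc16a1 in males (-0.10), of Acat1 (-0.042) and Bdh1 (-0.12) in the difference and of Bdh2 in WT sexes (0.19), and Acat1 passed in SIRT6-tg sexes (-0.30). It called 210 genes higher and 4084 lower in males, 26 higher and 1837 lower in the difference, and 3657 higher and 555 lower in WT sexes. Scaling to the hepatocyte markers, chosen after seeing the data, ended the calls of Acat1 (0.30) and Bdh2 (0.48) in males and of Acat1 (-0.16) and Slc16a1 (-0.28) in WT sexes. It turned Bdh1 (-0.0016) and Slc16a1 (-0.13) in males, Bdh2 in females (0.062), Acat1 (-0.20) and Bdh1 (-0.29) in the difference, and Bdh1 (0.0025) and Bdh2 (0.34) in WT sexes, while Acat1 (-0.36) and Bdh1 (-0.29) passed in SIRT6-tg sexes. It called 162 genes higher and 3954 lower in males, 29 higher and 2 lower in females, 25 higher and 3217 lower in the difference, 5591 higher and 388 lower in WT sexes, and 1358 higher in SIRT6-tg sexes. Under that scaling the median of all genes went from 0.0564 to -0.237 in males and from -0.00326 to 0.3 in WT sexes.

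Without female WT replicate 1 and male WT replicate 6 together, also chosen after seeing the data, Bdh1 was not called in males (0.26) or WT sexes (-0.27), Bdh2 turned in females (0.19) and WT sexes (0.18), and 2 genes were lower in females. Replicate numbers only name the libraries. Correlations of same-numbered libraries ran from -0.7 to 0.594, and in no pair of groups were more than 4 of 7 above 0.1. With the replicate number as a block, Bdh1 in WT sexes was -0.30 (adjusted p = 0.0567), Bdh2 there turned to 0.034 and 2 genes were lower in females, and no other member changed its call.

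Over the 28 fits that left out 1 library each, the lowest and highest values were as follows. In males they were 0.23 to 0.34 for Bdh1, 0.70 to 0.94 for Bdh2, 0.54 to 0.62 for Acat1 and 0.06 to 0.26 for Slc16a1, with 1099 to 2446 genes higher and 2137 to 2480 lower. In females they were 0.07 to 0.17 for Bdh1, -0.29 to 0.19 for Bdh2, 0.29 to 0.40 for Acat1 and 0.0081 to 0.35 for Slc16a1, with 2 to 12 genes higher and 1 to 8 lower. In the difference between the sexes they were 0.12 to 0.22 for Bdh1, 0.60 to 1.08 for Bdh2, 0.18 to 0.31 for Acat1 and -0.20 to 0.16 for Slc16a1, with 110 to 434 genes higher and 624 to 1002 lower. In WT sexes they were -0.34 to -0.24 for Bdh1, -0.16 to 0.32 for Bdh2, -0.50 to -0.37 for Acat1 and -0.67 to -0.48 for Slc16a1, with 1091 to 1672 genes higher and 881 to 1340 lower. In SIRT6-tg sexes they were -0.16 to -0.08 for Bdh1, 0.82 to 1.07 for Bdh2, -0.26 to -0.16 for Acat1 and -0.77 to -0.42 for Slc16a1, with 2142 to 3183 genes higher and 1675 to 2426 lower. Bdh1 lost its call in 9 fits in males and 13 in WT sexes, and Slc16a1 in 12 in WT sexes, whereas Acat1 and Bdh2 kept theirs in males in all 28. The count higher in males fell to 1099 without male WT replicate 4, and the direction of Bdh2 in females and of Slc16a1 in the difference turned without female WT replicate 1 and female SIRT6-tg replicate 1. In WT sexes the direction of Bdh2 turned in 10 fits. Bdh2 held 265 to 990 counts per library, a Poisson counting error of 3.18 to 6.14%, beside a coefficient of variation between mice of 21.1 to 55.5% within groups.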
